A study of Mus musculus with 4 samples.

Results

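The transcription factors that set up the enteroendocrine lineage were followed on 4 expression arrays of mouse intestinal organoids. The members were 9 genes chosen by name, and every probe set annotated to exactly 1 of them was used. A probe set is the group of short probes that gives 1 intensity per array. Of the 9 genes, 7 were read, by 15 of the 34945 probe sets that name a single gene: Neurog3, Neurod1, Isl1 and Insm1 by 2 each, Pax6 by 5, and Pax4 and Nkx2-2 by 1 each. Fev and Rfx6 were not analysed here. The organoids, epithelial cultures grown in Matrigel, carried floxed Apc (Apc fl/fl) in all groups. Apc, a tumour suppressor of the gut, keeps Wnt signalling low by helping to destroy beta-catenin. The groups were untreated organoids at day 4, 4OHT-treated organoids at day 4, untreated organoids at day 6 and 4OHT-treated organoids at day 6, with 1 array each, and 4-hydroxytamoxifen (4OHT) was applied for 24 h to recombine Apc. Apc-deficient is the labels' word for the 4OHT-treated organoids. The Cre driver, the age and strain of the source animals and whether the organoids came from 1 line are not given in the sources used here. Organoids with unfloxed Apc that received 4OHT were not analysed here. An effect of 4OHT itself therefore cannot be told apart from one of Apc recombination. With 1 array per group, no difference has a replicate check.

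Enteroendocrine cells are the hormone-secreting cells of the gut epithelium and arise from the same crypt stem cells as absorptive cells. Neurog3 is expressed briefly in progenitors and commits them to the lineage, under restraint by Notch signalling. Neurod1, Insm1, Pax4, Pax6, Isl1, Nkx2-2, Fev and Rfx6 act after or beside it to drive differentiation and to select which hormone a cell makes. In organoids these cells are rare, and in bulk RNA fewer cells of a type and less RNA per cell cannot be told apart.

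The clearest differences with 4OHT were in opposite directions for the factor at the start of the lineage and for one that acts later. Neurog3, on its 1 probe set past the level filter, was higher on the 4OHT array of each day. Both probe sets of Isl1 were lower, of which 1450723_at passed the filter only through its untreated arrays. Pax4 was higher by less, and the probe sets of Neurod1, Pax6 and Insm1 past the level filter differed by -0.15 to 0.34 on the log2 scale. None of the 9 member probe sets past the level filter passed the test across all probe sets.

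All 10 markers of intestinal epithelium passed the level filter. With 4OHT 1 of them fell, beside 0.981% of all 23044 probe sets past the filter. It was Krt20, a keratin of differentiated cells (-1.41 ± 0.21, SE, limma's adjusted p = 0.00767). Its call was lost under the settings where limma called 0 probe sets, among them pseudocounts of 1 and 64, no level filter and no day term. Of the other keratins and the brush border gene Vil1, none of which passed, Krt18 differed by 0.45 and 0.83, Krt19 by -0.32 and -0.82, and Vil1 by -0.24 and -0.28 at days 4 and 6. The filter asks that the highest of the 4 intensities reach 20.9, the median of all values. Of all 18193 genes, 13198 passed it on their brightest probe set, so passing does not by itself show a cell type. Of the enteroendocrine products, 17 of 21 measured passed it. Of the markers of enteric neurons and glia, which can also express Isl1, 6 of 8 measured passed, while Elavl4 and Snap25 did not. The summed intensity of the 8 was 206 and 141 on the untreated arrays and 223 and 156 on the 4OHT arrays of days 4 and 6. Of the pancreatic islet markers 2 of 4 passed (summed intensity 90.1 and 67.6 untreated, 99.5 and 86.0 with 4OHT). The fibroblast and muscle list had 5 of 7 past the filter (204 and 114 untreated, 198 and 121 with 4OHT) and the immune list 2 of 4 (96.3 and 58.0 untreated, 97.4 and 51.9 with 4OHT). No gene of these 4 lists passed limma's test, beside 0.334% of all probe sets that rose and 0.981% that fell. The signal of Actb toward its 3' end exceeded that toward its 5' end by more on the 4OHT arrays, by 0.94 at day 4 and 0.62 at day 6 on the log2 scale, and that of Gapdh by 0.87 and 0.56. From day 4 to day 6 the same measure differed by -1.24 untreated and -1.56 with 4OHT for Actb, and by -0.56 and -0.87 for Gapdh. The mean log2 signal of the hybridization controls also differed between the arms, 4OHT minus untreated, by -0.35 at day 4 and 0.83 at day 6. That of the poly-A controls differed by -0.45 and 1.38. The part of these measures in the results was not tested.

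The promoter windows of the member that was highest with 4OHT (Neurog3), of the one that was lowest (Isl1) and of one with small differences (Neurod1) are shown for comparison, from RefSeq on GRCm38.p6. Each runs from 250 bases before to 50 bases after the start of the gene, 5′ to 3′ on the strand of the gene. Capitals mark matches to the E-box, CANNTG, the class of site bound by factors of the Neurog3 and Neurod1 family, and to the N-box, CACNAG, the class bound by the Notch effector Hes1.
Neurog3, chr10:62132840-62133139, plus strand: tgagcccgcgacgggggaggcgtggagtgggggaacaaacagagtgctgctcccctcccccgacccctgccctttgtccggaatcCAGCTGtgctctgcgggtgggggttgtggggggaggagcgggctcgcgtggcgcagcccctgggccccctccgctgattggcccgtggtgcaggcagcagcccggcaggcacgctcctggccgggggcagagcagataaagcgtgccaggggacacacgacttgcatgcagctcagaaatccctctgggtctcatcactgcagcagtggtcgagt
Neurod1, chr2:79456587-79456886, minus strand: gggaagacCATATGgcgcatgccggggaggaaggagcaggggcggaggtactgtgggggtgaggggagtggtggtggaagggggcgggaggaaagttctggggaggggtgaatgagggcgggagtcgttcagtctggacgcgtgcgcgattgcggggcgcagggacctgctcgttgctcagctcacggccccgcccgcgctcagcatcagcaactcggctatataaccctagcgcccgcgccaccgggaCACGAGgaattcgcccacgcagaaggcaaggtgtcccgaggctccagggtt
Isl1, chr13:116309639-116309938, minus strand: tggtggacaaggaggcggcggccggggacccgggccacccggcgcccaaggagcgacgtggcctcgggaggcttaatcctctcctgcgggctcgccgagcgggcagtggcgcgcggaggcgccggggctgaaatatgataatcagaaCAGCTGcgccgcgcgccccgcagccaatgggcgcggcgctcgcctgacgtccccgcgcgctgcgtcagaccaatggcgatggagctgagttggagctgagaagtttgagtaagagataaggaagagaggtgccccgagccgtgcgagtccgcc
The Neurog3 and Isl1 windows each held 1 E-box, with the letters CAGCTG in both, starting at position -165 and -103 from the gene's start. The Neurod1 window held the E-box CATATG at position -242 and an N-box, CACGAG, that begins at position -1. No window of the 3 held the core of the TCF motif, CTTTGA, the class of site bound by the partners of beta-catenin. Both strands were searched, the E-box reads the same on both, and no matches overlapped. Of 32851 windows of this length over all genes, 72.3% held an E-box, 42.5% an N-box and 16% the TCF core, so these matches are common and describe the letters only. Windows were found for 7 of the 9 members, and those of Pax4 and Insm1 were not among them.

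Neurog3 encodes the basic helix-loop-helix factor that starts the lineage. Its probe set 1432034_at had an intensity of 45.2 on the untreated and 102 on the 4OHT array at day 4, and at day 6 of 76.1 and 134. Both 4OHT arrays were above both untreated arrays. Within each arm the deposited intensity was higher at day 6 than at day 4, but the scaling between the days is unknown. On the log2 scale that difference became 0.24 untreated and -0.09 with 4OHT after quantile normalization. The 4OHT difference in log2(intensity + 16), a scale that shrinks differences between dim values, was 0.95 at day 4 and 0.70 at day 6, or 1.93-fold and 1.63-fold. The ratios of the intensities as deposited were 2.26 and 1.76. Limma's test over both days, with day as an additive term, gave 0.82 ± 0.20 (SE, 2 arrays against 2) and an adjusted p of 0.0889, which did not pass 0.05. With 1 probe set per gene, limma was fitted and adjusted over 13198 in place of 23044. The same effect then had an unadjusted p of 0.001, in place of 0.00182, and an adjusted p of 0.034. After quantile normalization of the arrays the effect was 0.86 with an adjusted p of 0.032. Over its 13 alternatives the adjusted p ran from 0.032 to 1. The other probe set, 1422312_a_at, stayed at 4.90 to 9.24 on all arrays, under the level filter. It differed with 4OHT by 0.27 at day 4 and by -0.15 at day 6, so the Neurog3 result rests on 1 probe set.

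**Figure D1:**
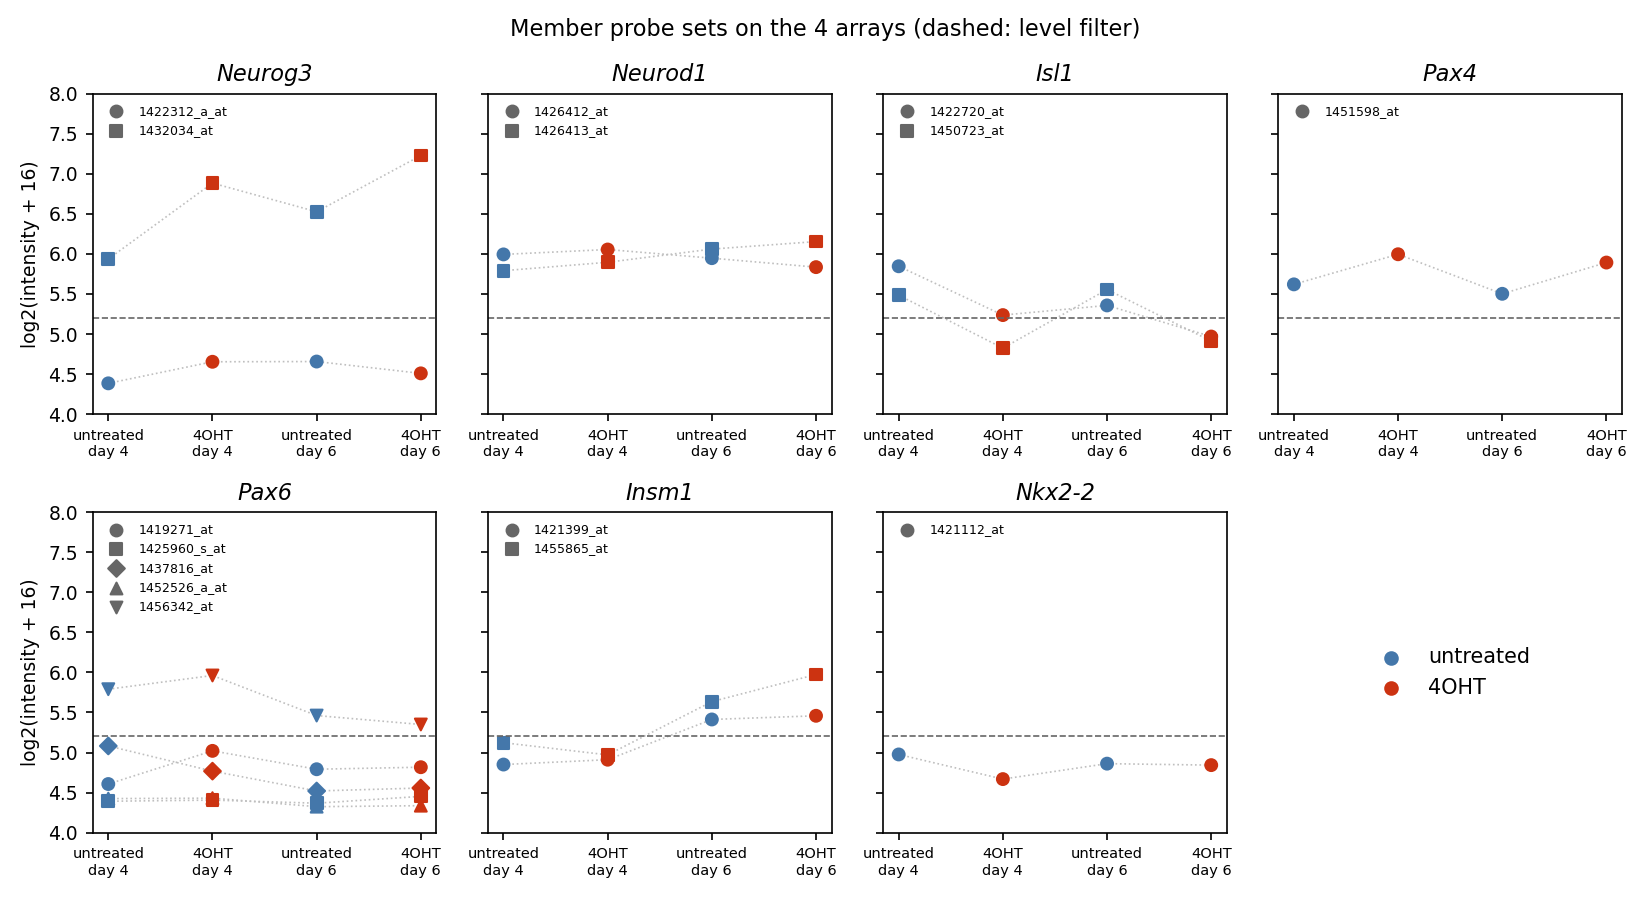
Level of each probe set of the 7 genes read, as log2(intensity + 16), on the 4 arrays (blue, untreated; red, 4OHT; 1 array each, no error bars). Symbols mark probe sets and the dashed line the level filter; Neurog3 1432034_at is higher in red than in blue on each day, and both Isl1 probe sets are lower.

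Isl1 encodes a LIM-homeodomain factor of maturing hormone cells. Its probe set 1450723_at read 28.8 on the untreated and 12.3 on the 4OHT array at day 4, then 31.0 and 14.1 at day 6. The other, 1422720_at, read 41.5 and 21.7 at day 4, and 25.0 and 15.3 at day 6. On both, the 2 untreated arrays were above the 2 4OHT arrays without overlap. The 4OHT difference was -0.66 and -0.64 on the former and -0.61 and -0.39 on the latter, at days 4 and 6. The effect over both days was -0.65 ± 0.20 (SE; limma's unadjusted p = 0.00747, adjusted p = 0.184) and -0.50 ± 0.20 (unadjusted p = 0.0316, adjusted p = 0.354), and neither passed. Over the alternatives the lowest adjusted p was 0.14 and 0.246 and the highest 1. Both probe sets were designed from the same source sequence, so they are not independent readings. The ratios of the deposited intensities, untreated over 4OHT, were 2.33 and 2.20 on the former and 1.91 and 1.63 on the latter. The 4OHT intensities of 12.3 to 21.7 lay about or under the level of the filter, where the added 16 matters. Isl1 1450723_at passed the filter only through its untreated arrays, so its being lower with 4OHT was partly fixed by the filter. With 1 added in place of 16, the differences of 1450723_at were -1.16 and -1.08, past 2-fold on both days, and with 64 added they were -0.28 and -0.28.

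Pax4 encodes a paired-homeodomain factor needed for several hormone lineages, and had 1 probe set. It read 33.2 untreated and 47.8 with 4OHT at day 4, and 29.3 and 43.4 at day 6. Both 4OHT arrays lay above both untreated arrays, as for Neurog3. The differences were 0.38 and 0.39, and the effect over both days was 0.38 ± 0.20 (SE, limma's adjusted p = 0.5), which did not pass. Across the member probe sets past the level filter, 2 had both 4OHT arrays above both untreated ones (Neurog3 and Pax4), beside 8.5% of all 23044 probe sets. Another 2 had both below (the 2 of Isl1), beside 5.32%. Of these, 1450723_at passed the filter only through its untreated arrays.

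Neurod1, a basic helix-loop-helix factor that follows Neurog3, was read by 2 probe sets from 1 source sequence. In the order untreated and 4OHT at day 4, then untreated and 4OHT at day 6, 1426412_at read 47.7, 50.5, 45.7 and 41.1. In the same order 1426413_at read 39.3, 43.5, 50.7 and 55.2. The arms overlapped on both, and the 4OHT differences lay between -0.11 and 0.10. The effects over both days were -0.03 ± 0.20 and 0.10 ± 0.20 (SE; limma's adjusted p = 0.984 and 0.914). Errors of this size do not show that Neurod1 was the same in both arms.

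Insm1 encodes a zinc-finger repressor expressed soon after Neurog3. Its probe set 1455865_at read 18.9 untreated and 15.4 with 4OHT at day 4, and 33.7 and 46.8 at day 6. Its probe set 1421399_at read 12.9 and 14.1 at day 4, and 26.6 and 28.0 at day 6. Both were higher on the day 6 arrays than on the day 4 arrays and overlapped between the arms. The 4OHT difference of 1455865_at was -0.15 at day 4 and 0.34 at day 6, and that of 1421399_at 0.06 and 0.05. The effects over both days were 0.09 ± 0.21 and 0.05 ± 0.20 (SE; limma's adjusted p = 0.929 and 0.962).

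Pax6, a paired-homeodomain factor of hormone-producing cells, passed the level filter on 1 of its 5 probe sets. That one, 1456342_at, read 39.3 untreated and 46.3 with 4OHT at day 4, and 28.1 and 24.8 at day 6. Its 4OHT difference was 0.17 at day 4 and -0.11 at day 6 (0.03 ± 0.21 over both days, SE, limma's adjusted p = 0.983). The other 4, 1419271_at, 1425960_s_at, 1437816_at and 1452526_a_at, stayed between 4.05 and 17.9 on all arrays, with 4OHT differences from -0.31 to 0.41. Nkx2-2, a homeodomain factor, was read by 1 probe set at 15.5 untreated and 9.45 with 4OHT at day 4, and at 13.1 and 12.7 at day 6. It lay under the level filter on all 4 arrays and was not tested. In all, 6 of the 15 probe sets and 1 of the 7 genes, Nkx2-2, stayed under the filter.

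**Figure D2:**
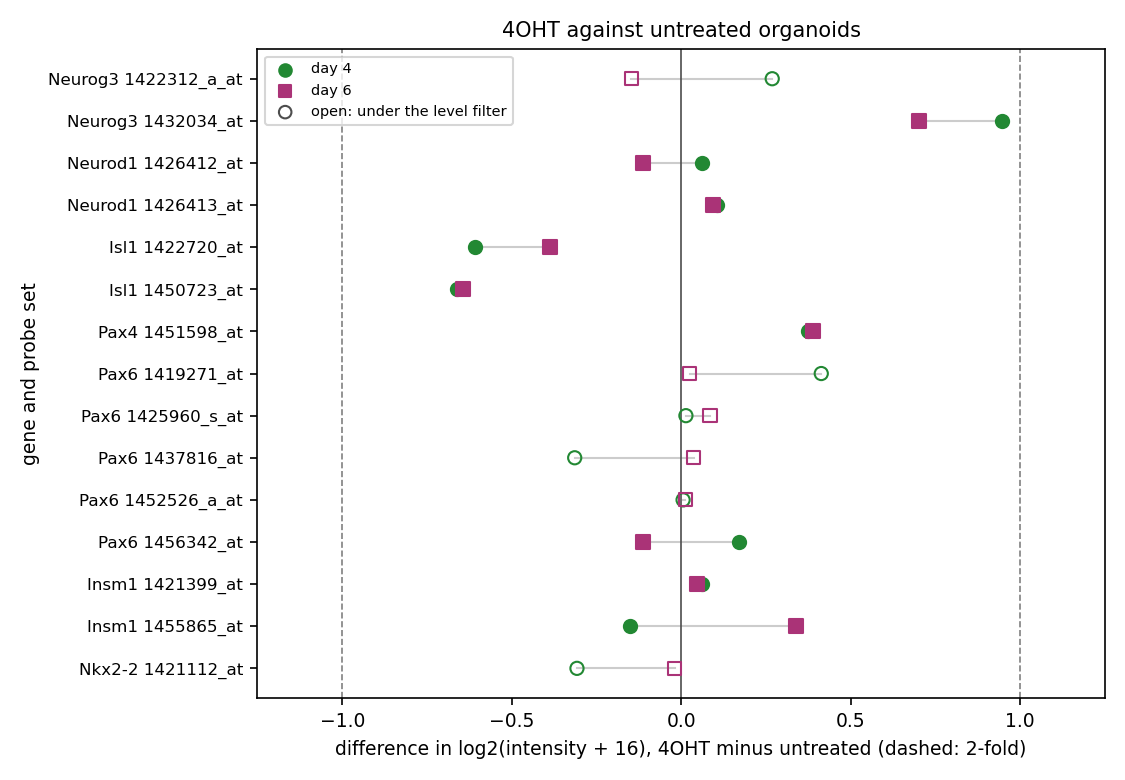
Difference in log2(intensity + 16), 4OHT minus untreated, for each member probe set at day 4 (green circles) and day 6 (purple squares), 1 array against 1; open symbols lie under the level filter and dashed lines mark 2-fold. Neurog3 1432034_at is farthest right at 0.95 and 0.70, the Isl1 probe sets are farthest left at -0.39 to -0.66, and none reaches 2-fold.

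No member probe set reached 2-fold with 4OHT on either day. At day 4, 2-fold was reached by 0.903% of all 23044 probe sets past the filter in the higher and by 0.907% in the lower direction, and at day 6 by 0.668% and 2.5%. The count depends on the scale. Neurog3 reached 1.16 at day 4 with 1 added in place of 16 and 1.03 after quantile normalization, but with 64 added it was 0.60 at day 4 and 0.50 at day 6. At 1.5-fold on both days, 1 of the 9 was higher (Neurog3) and 1 lower (Isl1 1450723_at), beside 0.994% and 1.92% of all. The test over both days called 0 of the 9, beside 0.334% that rose and 0.981% that fell. At an unadjusted p under 0.05 it held 3 of the 9 (Neurog3 and both of Isl1), beside 11.9% of all. Isl1 1450723_at passed the filter only through its untreated arrays, so its place in these counts was partly fixed by the filter. The median difference of the 9 was 0.06 at day 4 and 0.05 at day 6, beside 0.05 and -0.02 over all. With 4OHT, 4 of the 9 were higher and 2 lower on both days, whatever the size, beside 29.5% and 27.1% of all. With 1 probe set per gene 1 of 6 member genes passed (Neurog3, higher), beside 1.06% that rose and 2.41% that fell, and after quantile normalization 1 of 9 probe sets (again Neurog3), beside 0.807% and 1.79%. The 9 probe sets belong to 6 genes and are not replicates.

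Day 6 was also set against day 4 in each arm. The scaling between the arrays of the 2 days is unknown, and the median difference over all probe sets past the filter was 0.21 without and 0.07 with 4OHT. Quantile normalization shifted those medians by -0.24 and -0.15, and median centring shifted them by 0.11 and 0.098. The mean log2 signal of the hybridization controls differed between the days by -2.26 untreated and -1.07 with 4OHT, and that of the poly-A controls by -2.89 and -1.06. The part of these shifts, and of those in the 3' to 5' signal, in the differences between the days was not tested. Insm1 was higher at day 6, by 0.51 untreated and 1.0 with 4OHT on 1455865_at and by 0.56 and 0.55 on 1421399_at. The value of 1.0 made Insm1 1455865_at the only member probe set at 2-fold, beside 16.2% of all probe sets that were at least 2-fold higher in the 4OHT arm. It became 0.48 with 64 added in place of 16. Both Insm1 probe sets passed the level filter only through the day 6 arrays, since their day 4 intensities of 12.9 to 18.9 lay under it, so their being higher at day 6 was partly fixed by the filter and rests on a dim base. In the untreated arm no member reached 2-fold, beside 23.7% higher and 4.43% lower, and in the 4OHT arm none was 2-fold lower, beside 2.47%. Neurog3 1432034_at was higher at day 6 by 0.59 untreated and by 0.34 with 4OHT, which became 0.24 and -0.09 after quantile normalization. Pax6 1456342_at was lower by 0.33 untreated and 0.61 with 4OHT, and Isl1 differed by -0.49 and -0.27 on 1422720_at and by 0.07 and 0.09 on 1450723_at. Pax4 differed by -0.12 and -0.10. Of the 9, 5 were higher and 4 lower at day 6 in both arms, beside 48.8% and 37.5% of all probe sets. The 5 include both Insm1 probe sets, so this count was partly fixed by the filter.

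**Figure D3:**
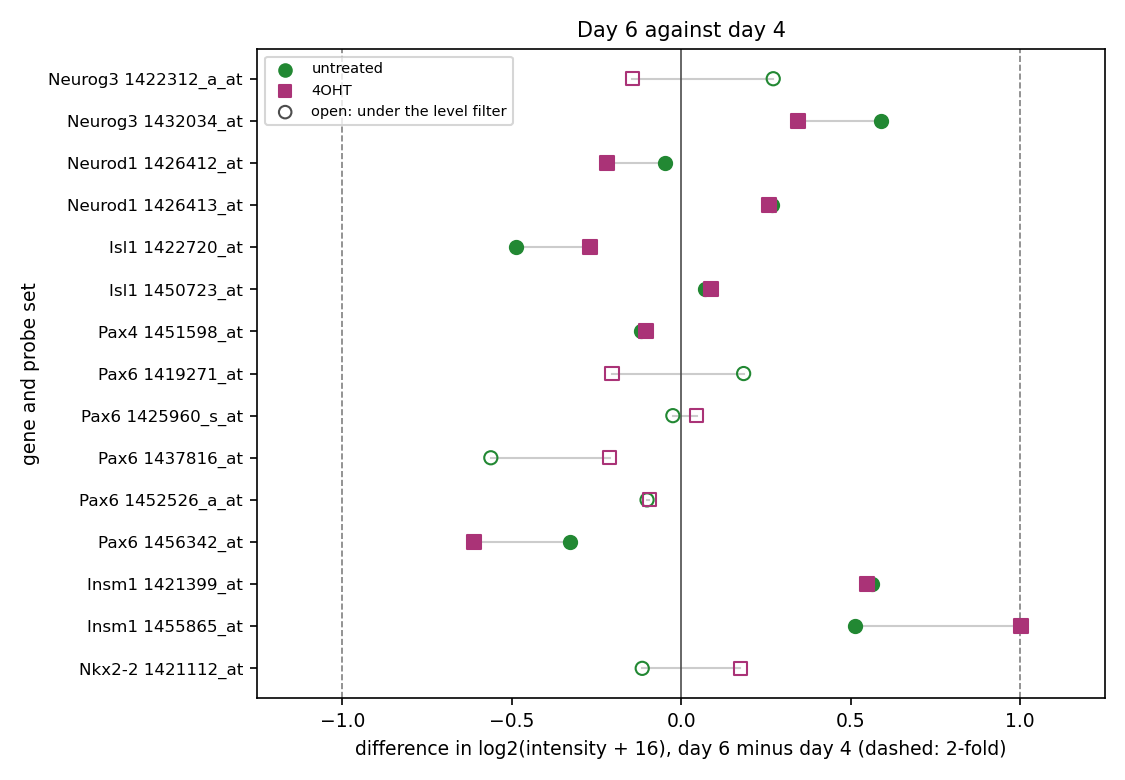
Difference in log2(intensity + 16), day 6 minus day 4, for each member probe set in untreated (green circles) and 4OHT (purple squares) organoids, 1 array against 1; open symbols lie under the level filter and dashed lines mark 2-fold. Both Insm1 probe sets lie to the right, at 0.51 to 1.0, and Pax6 1456342_at to the left, at -0.33 and -0.61.

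Genes around the members were taken from 3 fixed lists, each gene by its brightest probe set. Over all 23044 probe sets past the filter, 0.334% rose and 0.981% fell by limma's test. The median 4OHT difference over all of them was 0.05 at day 4 and -0.02 at day 6. Among 17 enteroendocrine products past the level filter, 1 rose by limma's test, none fell and 16 did not pass. Their median difference was -0.09 at day 4 and -0.02 at day 6. The one that rose was Nts, the neurotensin gene, which read 48.8 untreated and 101 with 4OHT at day 4, and 26.3 and 72.9 at day 6. Its effect over both days was 0.96 ± 0.20 (SE, limma's adjusted p = 0.0454), and it did not pass under the settings where limma called 0 probe sets, among them pseudocounts of 1 and 64 and no level filter. Pyy, a hormone of the distal gut, differed by -0.55 and -0.91, Gip, an incretin hormone, by -0.32 and -0.40, and the ghrelin gene Ghrl by -0.30 and -0.37, without passing. The 4 named products thus differed in both directions. None of 14 secretory fate and Notch genes passed, with medians of 0.32 and 0.17. Ranked by the smaller of the 2 days' differences, the highest were Hes6 (0.88 and 0.50), a relative of Hes1, and then Sox4 (0.65 and 0.47) and Sox9 (0.63 and 0.42), both transcription factors of the crypt, followed by Ascl2 (0.21 and 0.59), a factor of stem cells. Hes1, which represses Neurog3, differed by 0.15 and 0.07, and Atoh1, which opens the secretory lineages, by 0.16 and 0.31; both were chosen for their role once values were known. Of 18 measured other endocrine factors, 10 passed the filter and none passed the test, with medians of -0.0044 and 0.09. Foxa2, Pdx1 and Rfx3 were 0.07 to 0.33 higher on both days, and Neurog1 was lower by 0.33 and 0.02.

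**Figure D4:**
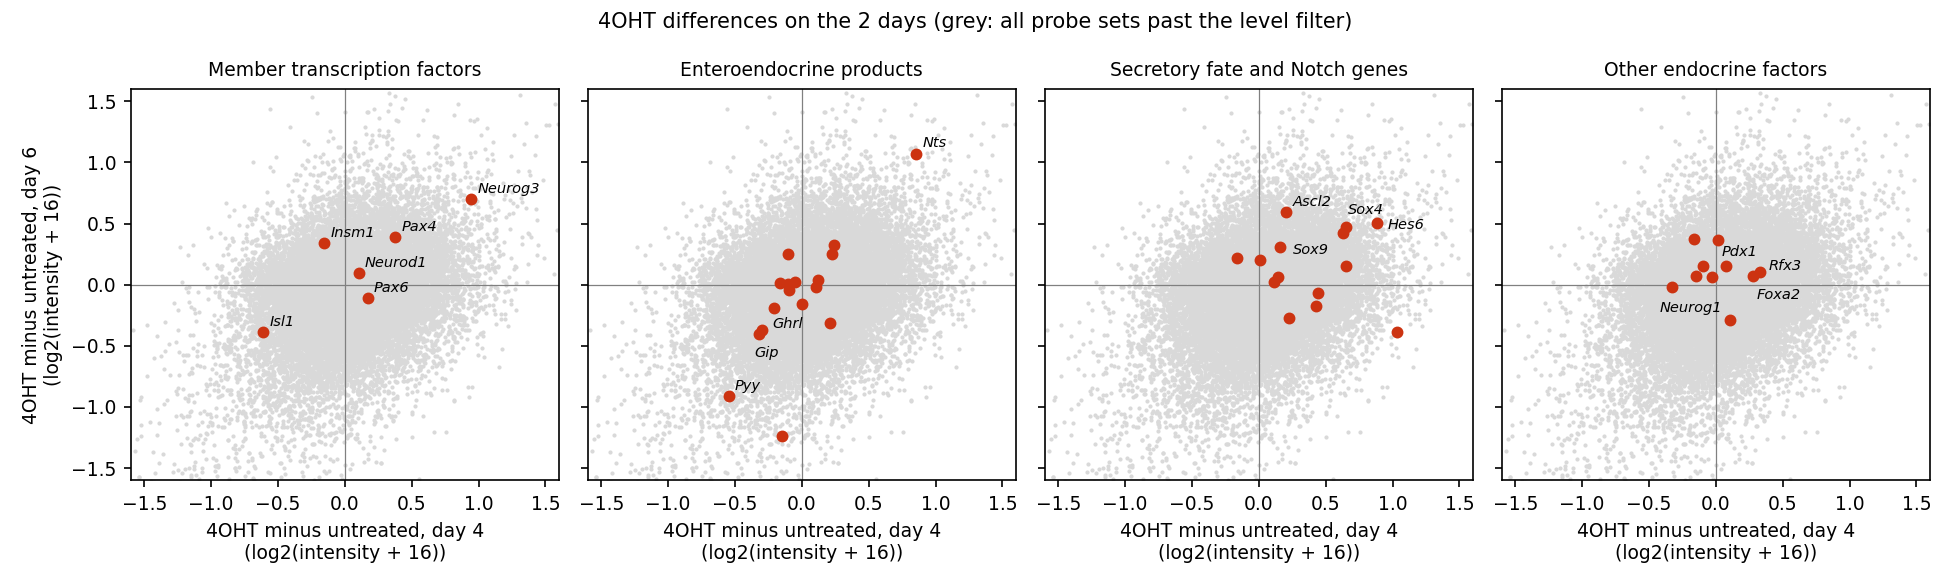
4OHT minus untreated difference in log2(intensity + 16) at day 4 (horizontal) against day 6 (vertical), for the member genes and 3 related lists (red, 1 brightest probe set per gene past the level filter) over all 23044 probe sets past the filter (grey; points outside the axes are not drawn). Neurog3 (0.95 and 0.70) and Nts (0.86 and 1.07) lie at the upper right, and Pyy (-0.55 and -0.91) and Isl1 (-0.61 and -0.39) at the lower left.

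The genes whose pattern was closest to that of a member were sought for Neurog3 and Insm1, the members whose brightest probe set spanned at least 1 on the log2 scale. Closeness was the Euclidean distance over the 4 mean-centred log2 values, among 13197 other genes. Nearest to Neurog3 were Slc41a1 (distance 0.03; 4OHT differences 0.97 and 0.69), Sesn3 (0.10; 0.81 and 0.70) and Nipal2 (0.12; 1.01 and 0.79). Nearest to Insm1 were Rmnd1 (0.04), Sash1 (0.07) and Pan3 (0.07), with differences at day 6 against day 4 of 0.53 to 0.60 untreated and 0.96 to 1.05 with 4OHT. The distances describe these 4 arrays only.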

How the data were processed

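Total RNA (100 ng per sample, per the labels' protocols) was labelled with a 3' in vitro transcription kit, so probe sets read mostly the ends of transcripts next to the poly-A tail. The values are linear probe-set intensities as deposited by the authors, from 2.73 to 23910.3, and their background correction, normalization and summarisation are not given in the sources used here. Median intensities were 19.3 to 22.0 per array. The number of arrays limits the precision. Gene names are those of the platform annotation. No comparison used the 10156 probe sets that are controls (64) or lack a single gene symbol.

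Values were moved to log2(intensity + 16). Calls were differences of at least 2-fold between single arrays, and limma 3.58.1 in R 4.3.3 (lmFit, eBayes; additive model of 4OHT and day; Benjamini-Hochberg over 23044 probe sets past the level filter; adjusted p under 0.05). Its 1 residual degree of freedom is the difference between the 4OHT effects of the 2 days, moderated with a prior SD of 0.21 on 10.5 degrees of freedom, and is not the spread between cultures. Tested on 1 set of simulated data, it made false calls above its nominal rate, with 22.1% of its calls false in place of 5%. There, 100 probe sets were changed by 1 and 100 by 2 on the log2 scale, and 22844 were left unchanged. The shift between the days was the same for all. The 22.1% depends on these settings, so it does not give the false share among the calls reported here. "Rose" and "fell" are used of what passed. Tables and plots used Python 3.11.15, pandas 2.3.3, numpy 2.4.6 and matplotlib 3.10.9.

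The members and lists were chosen with earlier results of these data known. Named were all members, per list the up to 4 genes that differed most in 1 direction on both days, by the smaller of the 2 differences, and the 3 genes nearest in pattern to a member, leaving out predicted and clone names. Of the cell type lists only that of intestinal epithelium is named by this rule, and Elavl4, Snap25, Hes1 and Atoh1 were named outside it. Alternatives were pseudocounts of 1 and 64, median centring, quantile normalization, other level filters (none, 75th percentile), probe set choices, thresholds (1.5-fold, 3-fold, adjusted p of 0.1), no day term and each array left out.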

Additional observations from a re-analysis of the deposited data

Results flagged for a closer look

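For 3 member probe sets past the level filter, the difference between 4OHT and untreated organoids went in opposite directions on the 2 days. With 1 array per group the difference between the days was not tested. For Insm1 1455865_at the 4OHT difference at day 6 exceeded that at day 4 by 0.49 on the log2 scale. For Pax6 1456342_at the day 6 difference minus that of day 4 was -0.28, and for Neurod1 1426412_at it was -0.17.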

How the results depend on the processing

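The single array per group and the dim signal of the members, near the level filter, limit every value here. The labels give no replicate numbers, so no replicate block was fitted, and the day term of limma's model sets each 4OHT array against the untreated array of its day. Under 2 other pseudocounts, median centring and quantile normalization, 233 of 240 member differences kept their sign, and of the 7 that turned 2 were past the level filter (Neurog3 1432034_at, -0.09 for the days with 4OHT after quantile normalization; Neurod1 1426412_at, 0.06 for the untreated days after median centring). The member effects over both days kept their side of the threshold, except that Neurog3 passed with 1 probe set per gene, after quantile normalization and at an adjusted p threshold of 0.1. With each array left out in turn and no day term, Neurog3 ran from 0.53 to 1.12, Isl1 1450723_at from -0.70 to -0.61 and Isl1 1422720_at from -0.74 to -0.25, and none passed. The same step turned the sign of 9 effects of 5 probe sets that had not passed. Their values ran from -0.135 to 0.084 for Neurod1 1426412_at and from -0.036 to 0.234 for Neurod1 1426413_at. They ran from -0.276 to 0.335 for Pax6 1456342_at, from -0.228 to 0.334 for Insm1 1421399_at and from -0.408 to 0.595 for Insm1 1455865_at. These fits had a single array in 1 arm and no day term, so each effect also holds part of the difference between the days. The ranges and turned signs are therefore not those of the 4OHT difference alone.

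The counts over all probe sets moved more. At least 2-fold apart with 4OHT were 417 at day 4 and 730 at day 6, which became 1476 and 1176 with a pseudocount of 1, 106 and 363 with 64, 2808 and 2857 at 1.5-fold, and 47 and 168 at 3-fold. Quantile normalization gave 704 at day 4, and at day 6 moved the split from 154 higher and 576 lower to 175 and 364. Between the days, 6485 untreated and 4313 with 4OHT became 9934 and 7127 with a pseudocount of 1, 3433 and 2013 with 64, 3957 and 2586 with 1 probe set per gene, 12315 and 9681 at 1.5-fold, and 2405 and 1336 at 3-fold. Quantile normalization moved the share that was higher at day 6 from 84.3% to 56.6% untreated and from 86.8% to 60.5% with 4OHT. Limma's 303 calls over both days became 599 after quantile normalization, 180 without probe sets whose ID ends in _x_at, _s_at or _a_at, 458 with 1 probe set per gene and 523 at an adjusted p of 0.1. They became 0 with a pseudocount of 1, with 64, without the level filter and with no day term, where 2314, 2580, 3346 and 86 had an unadjusted p under 0.05. Leaving out 1 array, which also dropped the day term, so that the steps cannot be told apart, left 0 to 74 calls: 74 without the untreated day 4 array, 0 without the 4OHT day 4 or the untreated day 6 array (89 and 290 at an unadjusted p under 0.05) and 3 without the 4OHT day 6 array. The cause of these shifts was not tested.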
